A study of Mus musculus with 6 samples.

Results

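Cadherins and protocadherins are calcium-dependent adhesion proteins of the cell surface, and 91 of the 32531 genes counted in these libraries were taken as members by their gene symbols alone. They were 23 cadherins (symbols Cdh with a number), 11 nonclustered protocadherins (Pcdh with a number) and 57 clustered protocadherin isoforms (alpha, beta and gamma). The libraries came from translating ribosome affinity purification (TRAP) followed by RNA sequencing of the midbrain of untreated mice of the Lhx5-TRAP line DT154. In such a line the ribosomal protein Rpl10a is fused to EGFP and placed under the control of Lhx5, so that antibodies to EGFP pull down polysomes from the cells that use this driver. All libraries, IP and Input alike, carry this transgene and no other allele or treatment is given, and neither age nor sex is given. The 2 groups were immunopurified RNA (IP, n = 3) and RNA titled Input (n = 3). Another label calls the Input libraries Unbound, so whether they are whole homogenate or what the beads left behind is not settled by the labels. Nothing in the labels ties each replicate to an animal of its own, so p-values here reflect the spread of these libraries alone, and that spread may be technical.

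The cadherin superfamily binds cell to cell through repeated extracellular domains. Classical cadherins of type I and type II join cells in adherens junctions and synapses through catenins, and different neuron groups carry different type II cadherins. Nonclustered protocadherins of the delta group adhere more weakly and act in axon outgrowth and the sorting of neurons. The clustered protocadherins are chosen promoter by promoter from gene arrays, and the mix on each neuron gives it a surface identity used in self-avoidance, tiling and survival. In brain tissue the genes are read by neurons, glia and vessels in different mixtures.

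Each library held between 38058239 and 45841499 counts in genes, so that 3 counts stood for 0.0687 to 0.074 CPM (counts per library total, with totals scaled by TMM, as for all CPM values here), a limit that covers counting error only. The line's driver gene Lhx5, measured as a check of the labels, had 46.8, 56.0 and 49.1 CPM in IP replicates 1 to 3, against 3.92, 3.80 and 2.20 CPM in Input replicates 1 to 3, a log2 fold change of 3.93 (SE 0.23). Transcripts of the transgene could add to that count. Of 4 genes of all neurons 3 were higher in IP, and all 5 astrocyte, 5 oligodendrocyte, 4 microglial and 5 endothelial markers measured were lower. No defining marker of these glial and vascular types was at 0 in all IP libraries. Single libraries carried markers of neighbouring regions. The 3 Purkinje cell markers summed to 952 CPM in IP replicate 2, against 125 and 94.9 CPM in IP replicates 1 and 3, and the 3 striatal markers summed to 417 CPM in Input replicate 3, against 71.7 and 25.1 CPM in Input replicates 1 and 2. In the same library the 3 ependymal and choroid plexus markers summed to 1320 CPM, against 363 and 21.6 CPM in Input replicates 1 and 2, and the 3 markers of midbrain dopamine neurons to 18.7 CPM, against 96.4 and 80.5 CPM. Most of the 1320 CPM was Ttr, at 1270 CPM, against 338 and 7.24 CPM in Input replicates 1 and 2. Kl had 38.5 CPM, against 14.7 and 6.97 CPM, and Foxj1 11.3 CPM, against 10.5 and 7.42 CPM. A fit without IP replicate 2 and Input replicate 3 together is given below, but the part of these markers in the results was not tested.

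The libraries numbered 3 stood apart for these genes. IP replicate 3 had the lowest IP value for 71 of the 82 members tested (86.6%), while it was the lowest for 31.4% of all 17197 genes tested. Input replicate 3 had the lowest Input value for 62 of 82 members (75.6%), against 38.4% of all genes. The median deviation of members from the mean of the other 2 libraries of the group was -0.61 on the log2 scale in IP replicate 3 and -0.29 in Input replicate 3, where all genes had 0.05 and 0.00. IP and Input libraries of the same number share a sequencing lane by their labels, so the lane and anything else that came with the number cannot be told apart here. Results below are therefore also given without these libraries where that alters a call.

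Of the 82 members with enough counts to test, 10 were higher in IP, where 26.0% of all tested genes were higher, and 8 were lower, where 27.9% of all tested genes were lower. In the family as a whole 22.0% of members were called, against 53.9% of all genes. The median log2 fold change was 0.03 over the members and -0.01 over all genes, with a median SE of 0.33 among members and 0.21 among all genes. Members ran from -2.88 (Cdh19) to 1.56 (Cdh22). The families differed in their counts, and also in level and precision. The median SE was 0.22 in cadherins, 0.23 in nonclustered and 0.38 in clustered protocadherins. Average log2 CPM was from 0 to under 4 for 9 cadherins, 1 nonclustered member and 49 clustered isoforms tested. In that range 6, 0 and 5 of them were called (66.7%, 0.0% and 10.2%), against 48.9% of all genes there. Cadherins had 5 higher and 3 lower of 19 tested, nonclustered protocadherins 4 higher and 1 lower of 10, and clustered protocadherins 1 higher and 4 lower of 53. Among cadherins 3 were higher without Input replicate 1 (21.4% of all genes) and 5 were lower without Input replicate 3 (4422 of all 17533 genes). Groups did not overlap for 23 members (28.0%), against 63.5% of all genes. In this bulk RNA, fewer cells of a type, less RNA per cell and less of that RNA on ribosomes cannot be told apart.

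**Figure D1:**
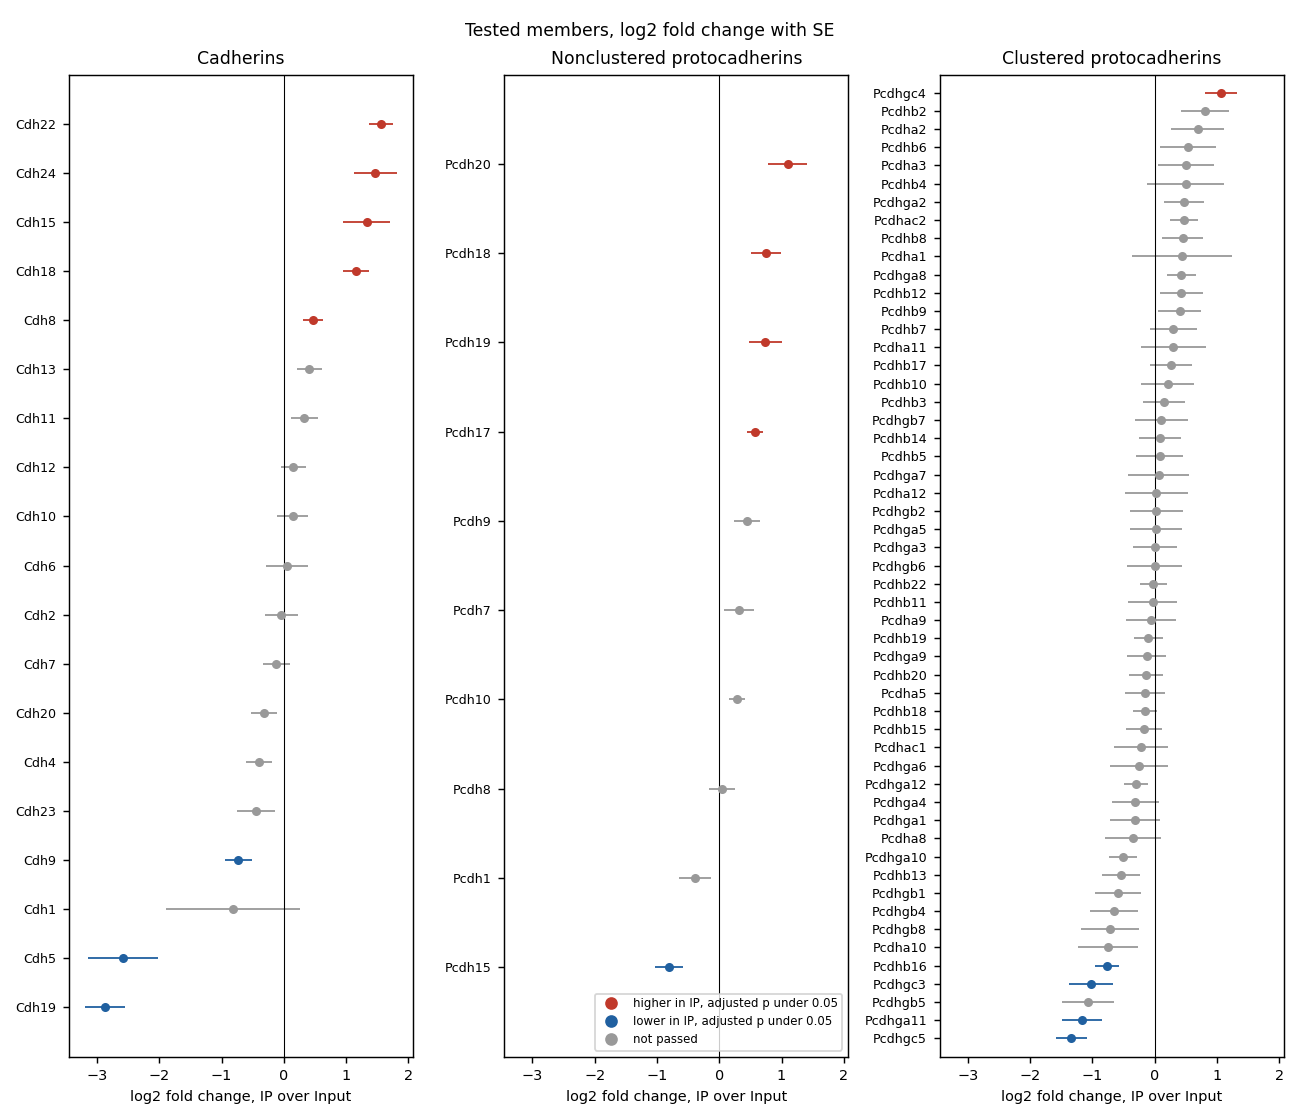
Log2 fold change of IP over Input with its SE for each of the 82 tested members (horizontal axis), sorted within the 3 families (rows). Red points were higher and blue points lower in IP at an adjusted p under 0.05, and grey points did not pass. Cadherins spread from -2.88 to 1.56, while 48 of 53 clustered isoforms are grey.

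The number of members called rested on few libraries. With the replicate number as a block, 15 members were higher, where 28.0% of all genes were higher, and 9 lower, where 28.4% were lower. The block added Cdh13, Pcdh7, Pcdh9, Pcdhac2 and Pcdhb2 among the higher members and Pcdh1 among the lower. When IP replicate 3 was left out, 18 were higher and 7 lower, where 24.6% of all genes were higher and 26.8% lower. When both libraries numbered 3 were left out, 17 were higher and 10 lower, where all genes had 26.3% higher and 27.3% lower. Without IP replicate 2 and Input replicate 3 together, 5 were higher and 10 lower. In that fit 3490 of all 17411 genes tested were higher and 4289 lower. It lost the calls of Cdh15, Cdh8, Cdh9, Pcdh18, Pcdh19 and Pcdh20, and it called Cdh1, Cdh23 and Pcdhgb1 lower. The fits that left out IP replicate 2, Input replicate 1 or Input replicate 3 had 6 higher each, where 21.6%, 21.4% and 22.4% of all genes were higher, and the fit that left out Input replicate 2 had 5 lower, where 23.7% were lower. Cdh22, Cdh24, Cdh18, Cdh19, Cdh5, Pcdh17, Pcdhgc4 and Pcdhgc5 were the members called in the same direction under every alternative run, the stricter threshold of 0.01 included, and Pcdh15 and Pcdhb16 lost their calls at that threshold alone.

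The promoters of the 5 members that rose past 2-fold and have an entry in the promoter table are shown first, because these are the members whose RNA stood furthest above Input. Each line gives the 250 bases before the RefSeq start (GRCm38.p6) on the gene's own strand, with the GC box GGGCGG, on either strand, in capitals. They lie at chr2:165234738-165234987 (minus strand), chr14:54641365-54641614 (minus), chr15:23036213-23036462 (plus), chr8:122848124-122848373 (plus) and chr14:88471397-88471646 (minus). By GENCODE M21 the Cdh24 and Pcdh20 windows end just before the gene's first base, the Cdh22 window reaches into the gene, and the Cdh18 and Cdh15 windows lie inside gene spans that begin further upstream.
Cdh22: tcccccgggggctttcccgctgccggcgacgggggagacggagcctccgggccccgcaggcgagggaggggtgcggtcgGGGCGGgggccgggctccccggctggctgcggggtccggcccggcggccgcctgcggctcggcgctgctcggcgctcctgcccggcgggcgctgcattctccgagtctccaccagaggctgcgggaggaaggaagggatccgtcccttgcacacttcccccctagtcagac
Cdh24: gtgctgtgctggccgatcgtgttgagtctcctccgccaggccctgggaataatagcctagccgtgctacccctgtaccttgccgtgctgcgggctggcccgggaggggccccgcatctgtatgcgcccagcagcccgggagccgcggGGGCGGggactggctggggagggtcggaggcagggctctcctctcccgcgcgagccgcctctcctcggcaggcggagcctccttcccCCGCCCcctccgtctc
Cdh18: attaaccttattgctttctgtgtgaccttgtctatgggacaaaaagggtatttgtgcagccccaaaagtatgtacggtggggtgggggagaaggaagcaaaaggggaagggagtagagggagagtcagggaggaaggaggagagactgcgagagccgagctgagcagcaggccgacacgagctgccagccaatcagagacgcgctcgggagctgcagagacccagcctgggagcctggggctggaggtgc
Cdh15: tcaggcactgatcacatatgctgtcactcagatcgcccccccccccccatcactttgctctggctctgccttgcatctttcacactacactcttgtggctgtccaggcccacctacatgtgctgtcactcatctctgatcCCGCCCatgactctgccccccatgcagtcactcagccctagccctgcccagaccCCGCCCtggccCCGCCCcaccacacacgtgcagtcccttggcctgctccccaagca
Pcdh20: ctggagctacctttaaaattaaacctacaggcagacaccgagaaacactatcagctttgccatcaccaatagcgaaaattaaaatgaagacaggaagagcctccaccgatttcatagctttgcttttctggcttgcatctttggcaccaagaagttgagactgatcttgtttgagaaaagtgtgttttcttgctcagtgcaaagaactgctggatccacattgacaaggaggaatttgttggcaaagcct

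The GC box occurred once in the Cdh22 window, 2 times in Cdh24 and 3 times in Cdh15, and 0 times in Cdh18 and Pcdh20. Of all 32851 promoter windows of this length 32.7% held it. The table has an entry for 22 members, with 25 windows in all because Cdh7 has 3 starts and Pcdh9 has 2, and 9 members held it, the others being Cdh6, Cdh8, Pcdh10, Pcdh17, Pcdh18 and Pcdh19. The homeodomain core TAATTA, a motif that LIM homeodomain factors such as Lhx5 can bind, was in 4.84% of all windows and in 1 of the 3 windows of Cdh7, and in no other member's window. The E-box CAGCTG (13% of all windows) was in Cdh9 and Cdh12, the TATA box TATAAA (12.4%) in Pcdh8 and Pcdh15, and the cAMP response element TGACGTCA (1.55%) in 0 of 22. None of these other motifs was in the 5 windows printed, and the searched motifs do not overlap within them. The GC content of the first window of each of the 22 members had a median of 58.2% and ran from 36.8% (Cdh10) to 77.6% (Cdh22), with a median of 52.4% over all windows. A match is only a description of the letters.

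Type I classical cadherins, the group of N-cadherin and E-cadherin, had 1 of 4 tested members higher (25.0%, against 26.0% of all genes) and 0 lower. Cdh15, M-cadherin, known from muscle and from cerebellar granule cells, had 2.63, 3.86 and 4.80 CPM in IP replicates 1 to 3, against 0.889, 1.90 and 1.68 CPM in Input replicates 1 to 3. Every IP library was above every Input library, and the fold change was 2.52 (log2 1.33, SE 0.38, Benjamini-Hochberg adjusted p 0.0171 in the edgeR quasi-likelihood test). The call was lost without IP replicate 3 (log2 1.13, edgeR adjusted p 0.0523), without Input replicate 1 (1.07, adjusted p 0.0517) and without both libraries numbered 3 (1.22, adjusted p 0.0512).

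The abundant neural members of this type did not pass. Cdh2, N-cadherin of neural adherens junctions and synapses, had 79.0, 79.4 and 40.0 CPM in IP libraries, against 76.4, 75.8 and 52.2 CPM in Input libraries. The groups overlapped, and both libraries numbered 3 were the lowest of their group. The log2 fold change was -0.04 (SE 0.26). Cdh4, R-cadherin, first known from retina, had 21.3, 21.5 and 12.5 CPM in IP and 23.4, 25.6 and 23.8 CPM in Input. All IP values of Cdh4 were below all Input values, and the change of -0.40 (SE 0.21) did not pass. Cdh1, E-cadherin of epithelia, had 0.263, 2.10 and 0.0700 CPM in IP and 1.75, 2.22 and 0.296 CPM in Input, scattered over both groups, and passed as lower without IP replicate 2 (log2 fold change -3.11, edgeR adjusted p 0.0489). Cdh3, P-cadherin, was too low to test, with 1, 0 and 0 counts in IP and 6, 24 and 12 counts in Input. Without the low-count filter, or with 1 IP library or Input replicate 1 left out, it was tested and passed as lower (edgeR adjusted p 0.00887 to 0.0261).

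Type II cadherins, which mark subsets of neurons and of vascular and glial cells, had 4 higher and 3 lower of 13 tested. These shares of 30.8% and 23.1% were near those of all genes, at 26.0% and 27.9%. Cdh22, a cadherin of pituitary and brain, had 20.3, 22.4 and 15.5 CPM in IP replicates 1 to 3, against 6.80, 7.29 and 5.65 CPM in Input replicates 1 to 3. The groups were far apart in every library. Its fold change of 2.95 was the highest of the tested members (log2 1.56, SE 0.19, edgeR adjusted p 0.000325). Cdh24, a less studied type II member, had 18.8, 9.5 and 13.8 CPM in IP and 6.66, 5.61 and 2.86 CPM in Input. The lowest IP library was above the highest Input library, although the IP libraries themselves spread over a wide range (log2 fold change 1.47, SE 0.35, edgeR adjusted p 0.00724).

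Cdh18, a cadherin of the central nervous system, had 87.3, 67.6 and 59.2 CPM in IP, against 38.4, 34.6 and 23.1 CPM in Input. Again no library overlapped, and replicate 3 was lowest in both groups (log2 fold change 1.16, SE 0.21, edgeR adjusted p 0.00223). Cdh8, which in mouse retina steers bipolar cell axons to their layer, had 69.7, 63.1 and 46.5 CPM in IP and 46.1, 40.5 and 44.1 CPM in Input. Here IP replicate 3 lay just above the highest Input value. The log2 fold change of 0.46 (SE 0.16, edgeR adjusted p 0.0375) was no longer called in the 5 fits that left out IP replicate 1 or 2 or any 1 of the Input libraries (edgeR adjusted p 0.066 to 0.14), nor with upper-quartile scaling (0.30, adjusted p 0.137).

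The type II members lower in IP included the endothelial cadherin. Cdh5, VE-cadherin of endothelial junctions, had 0.143, 0.610 and 0.257 CPM in IP replicates 1 to 3 (6, 25 and 11 counts), against 2.35, 2.09 and 1.65 CPM in Input replicates 1 to 3 (98, 91 and 67 counts). Every IP library was below every Input library (log2 fold change -2.59, SE 0.56, edgeR adjusted p 0.00471). The 5 other endothelial markers, all lower, summed to 2.17, 1.68 and 1.47 CPM in IP and 14.0, 13.4 and 9.52 CPM in Input. Their part in the value of Cdh5 was not tested.

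Cdh19, known from Schwann cell precursors and glia, had 0.597, 0.757 and 0.466 CPM in IP (25, 31 and 20 counts), against 4.54, 4.81 and 4.07 CPM in Input (189, 210 and 165 counts). This was the largest fall among the tested members, with every IP library below every Input library (log2 fold change -2.88, SE 0.32, edgeR adjusted p 0.000191). The 3 oligodendrocyte precursor markers summed to 21.7, 15.8 and 22.0 CPM in IP and 208, 184 and 193 CPM in Input, and the 5 astrocyte markers to 161, 160 and 108 CPM in IP and 1300, 1310 and 975 CPM in Input. Their part in the value of Cdh19 was not tested.

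Cdh9, a cadherin of synapse specificity in hippocampus and retina, had 11.9, 7.96 and 7.35 CPM in IP and 14.8, 17.2 and 13 CPM in Input. The groups did not overlap, with IP replicate 1 close to the lowest Input library. Its log2 fold change of -0.73 (SE 0.22, edgeR adjusted p 0.0215) was not called when IP replicate 2 (-0.67) or 3 (-0.58) or Input replicate 1 (-0.73) or 2 (-0.61) was left out, at edgeR adjusted p from 0.0545 to 0.083. Cdh22 and Cdh9 thus lay on opposite sides, and their count ratio was 1.71, 2.82 and 2.10 in IP libraries and 0.460, 0.423 and 0.436 in Input libraries. That ratio was picked after the values were seen, and the exact two-sided permutation test gave its smallest possible p of 0.1 with 3 libraries against 3. As the groups of neither gene overlapped, that outcome was fixed in advance and is no further support.

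Cdh6, Cdh7, Cdh10, Cdh11, Cdh12 and Cdh20 did not pass, at log2 fold changes from -0.32 (Cdh20) to 0.33 (Cdh11). Cdh11, a type II cadherin of mesenchyme and neurons, had 71.7, 69.7 and 40.6 CPM in IP and 45.6, 54.5 and 44.7 CPM in Input. IP replicates 1 and 2 were above every Input library and IP replicate 3 below every one. Without IP replicate 3 the log2 fold change of Cdh11 was 0.56 (edgeR adjusted p 0.00773), and without both libraries numbered 3 it was 0.50 (edgeR adjusted p 0.00769). Cdh20 was called lower without Input replicate 3 (-0.52, edgeR adjusted p 0.0463).

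Of the remaining cadherins 2 of 5 could be tested, and neither passed. Cdh13, T-cadherin, which is held by a lipid anchor and has no cytoplasmic tail, had 77.3, 60.6 and 44.6 CPM in IP and 51.2, 44.8 and 41.0 CPM in Input. Within each same-numbered pair the IP value was higher, while IP replicate 3 fell among the Input libraries. The log2 fold change was 0.41 (SE 0.20), and it was called with the replicate block (0.38, edgeR adjusted p 0.03), without IP replicate 3 (0.61, edgeR adjusted p 0.0125) and without both libraries numbered 3 (0.52, edgeR adjusted p 0.0118). Cdh23, a tip link protein of hair cells, had 5.83, 4.57 and 5.62 CPM in IP and 9.59, 8.16 and 4.17 CPM in Input. Input replicate 3, with its striatal markers, was below the other 5 libraries. The log2 fold change of Cdh23 was -0.45 (SE 0.31), and without Input replicate 3 it was -0.76 (edgeR adjusted p 0.0183) and without both libraries numbered 3 it was -0.77 (edgeR adjusted p 0.0181). Cdh17, the liver-intestine cadherin, had 38, 19 and 1 counts in IP and 5, 0 and 1 counts in Input, and it passed as higher without IP replicate 3 (edgeR adjusted p 0.0193) and without both libraries numbered 3 (edgeR adjusted p 0.0275). Cdh16 had 1, 0 and 5 counts in IP and 0 in every Input library, and Cdh26 had 0, 11 and 0 counts in IP and 5, 5 and 8 counts in Input.

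**Figure D2:**
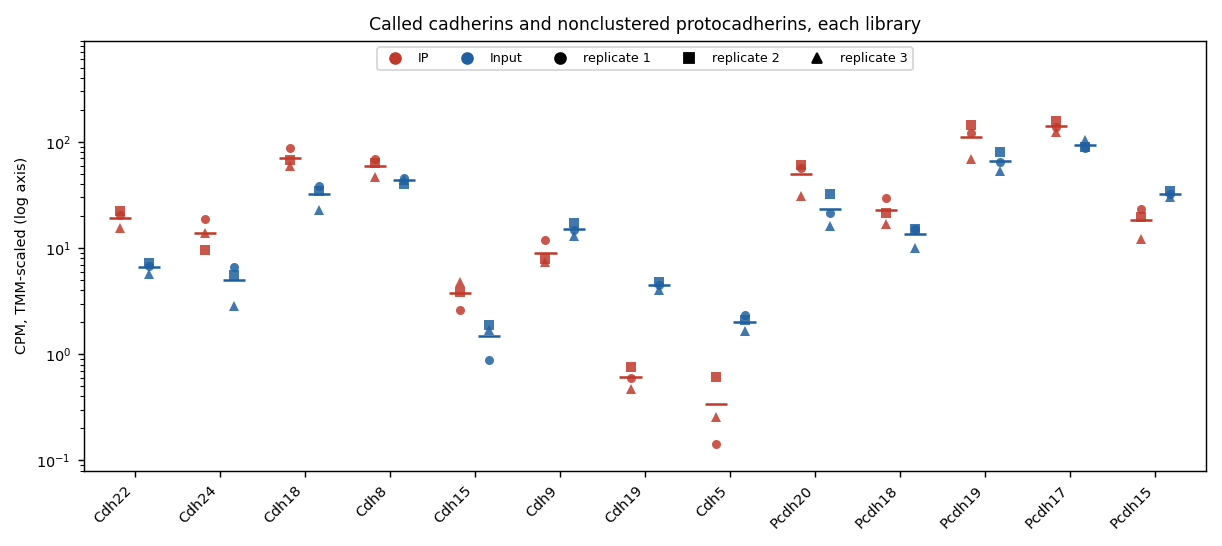
CPM in each library (vertical log axis) of the 13 called cadherins and nonclustered protocadherins, IP in red to the left of Input in blue, with bars at the group means and a marker shape for each replicate. The IP points of Cdh22, Cdh24 and Cdh18 lie above their Input points and those of Cdh19 and Cdh5 below them, and the triangles of replicate 3 are often the lowest of their group.

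Of the 10 nonclustered protocadherins tested, 7 were higher and 2 lower in IP in all 3 pairs, a share of 90.0% with 1 sign against 76.9% of all genes. Their median log2 fold change was 0.37, and 0.22 with upper-quartile scaling. The 4 called higher (40.0%, against 26.0% of all genes) became 6 with the replicate block (28.0% of all genes). They also became 6 when IP replicate 3 was left out (24.6% of all genes). Only 2 were called higher without IP replicate 1 (3901 of all 17829 genes) or without Input replicate 1 (21.4% of all genes). Only 1 was called higher without IP replicate 2 (21.6% of all genes) or without Input replicate 3 (22.4%). The block also gave 2 called lower (28.4% of all genes), against 1 in the main comparison (27.9%). Summed over the family they had 1170, 1110 and 767 CPM in IP and 837, 844 and 675 CPM in Input. The 5 delta-2 members, known for axon outgrowth and the WAVE complex, had 3 higher, 0 lower and 2 not passed. Among all genes 26.0% were higher and 27.9% lower, and whether so few members differ from that was not tested. Pcdh17, which sorts axons and regulates presynaptic assembly in the basal ganglia, had 139, 159 and 125 CPM in IP, against 88.1, 90.0 and 104 CPM in Input. All IP libraries were above all Input libraries, even though Input replicate 3 was here the highest of its group (log2 fold change 0.58, SE 0.13, edgeR adjusted p 0.00482).

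Pcdh18, a delta-2 member first studied through its binding of the adaptor Dab1, had 29.7, 21.5 and 16.9 CPM in IP and 15.3, 15.1 and 9.94 CPM in Input. The groups did not overlap, but IP replicate 3 lay near Input replicate 1 (log2 fold change 0.75, SE 0.24, edgeR adjusted p 0.0293). Pcdh18 was not called when IP replicate 1 (log2 0.52), IP replicate 2 (0.76) or Input replicate 3 (0.56) was left out or when upper-quartile scaling was used (0.60), at edgeR adjusted p from 0.0616 to 0.1. Pcdh19, the X-linked gene of a human epilepsy, had 121, 144 and 68.7 CPM in IP and 65.5, 80.7 and 53.6 CPM in Input. IP replicate 3 fell between Input replicates 1 and 2, so the groups overlapped (log2 fold change 0.74, SE 0.26, edgeR adjusted p 0.0411). The call of Pcdh19 was lost when IP replicate 1 (0.68) or 2 (0.48) or Input replicate 1 (0.73) or 3 (0.59) was left out, at edgeR adjusted p from 0.0992 to 0.201, and with upper-quartile scaling (0.59, edgeR adjusted p 0.0872) or no low-count filter (0.74, edgeR adjusted p 0.0596).

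Pcdh10, a delta-2 member of axon and synapse elimination pathways, had 194, 195 and 149 CPM in IP and 160, 136 and 146 CPM in Input. IP replicate 3 lay among the Input libraries, and the change of 0.29 (SE 0.13) did not pass. Without IP replicate 3 it was 0.42 and without both libraries numbered 3 it was 0.40, each with an edgeR adjusted p of 0.0153. Pcdh8, a delta-2 member that is taken in at synapses after activity, had a log2 fold change of 0.04 (SE 0.21).

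Of the 3 delta-1 members, which carry a protein phosphatase binding motif, 0 passed. The protocadherin Pcdh11x was not taken as a member because its symbol ends in a letter. It is counted below with the other superfamily genes and did not pass (log2 fold change 0.14, SE 0.22). Pcdh9 was the member with the highest level per length, at a mean of 45.5 CPM per kb of exon in IP and 33.6 CPM per kb in Input. Its libraries had 388, 301 and 236 CPM in IP and 255, 251 and 177 CPM in Input. IP was higher in each pair, but IP replicate 3 lay below Input replicates 1 and 2, so that the log2 fold change of 0.44 (SE 0.21) did not pass. It was called with the replicate block (0.43, edgeR adjusted p 0.0114), without IP replicate 3 (0.61, edgeR adjusted p 0.0294) and without both libraries numbered 3 (0.44, edgeR adjusted p 0.012). Pcdh7 had 139, 117 and 83.0 CPM in IP and 110, 100 and 62.2 CPM in Input, with replicate 3 lowest in both groups, and was called with the replicate block (0.32, edgeR adjusted p 0.0248). Pcdh1 had 64.2, 77.8 and 36.7 CPM in IP and 78.0, 90.2 and 66.3 CPM in Input, lower in each pair, and passed as lower with the block (-0.45, edgeR adjusted p 0.0319).

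Both tested members outside the delta groups passed, in opposite directions. Pcdh20, a protocadherin studied in olfactory and other sensory neurons, had 56.7, 61.0 and 31.3 CPM in IP replicates 1 to 3, against 21.2, 32.2 and 16.1 CPM in Input replicates 1 to 3. IP replicate 3 was just below Input replicate 2, and within each pair IP was higher (fold change 2.14, log2 1.10, SE 0.31, edgeR adjusted p 0.0153). The call was lost without IP replicate 2 (0.90), Input replicate 1 (1.04) or Input replicate 3 (0.88), at edgeR adjusted p from 0.0529 to 0.0817. Pcdh15, the partner of Cdh23 in the tip links of hair cells, had 23.3, 19.8 and 12.3 CPM in IP and 32.7, 34.2 and 30.0 CPM in Input. All IP libraries were below all Input libraries (log2 fold change -0.81, SE 0.22, edgeR adjusted p 0.0135). Oligodendrocyte precursors, which also carry Pcdh15 RNA in brain, had the summed marker levels given above for Cdh19, and their part here was not tested. The third such gene, Pcdh12 of endothelium, had too few counts to test.

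**Figure D3:**
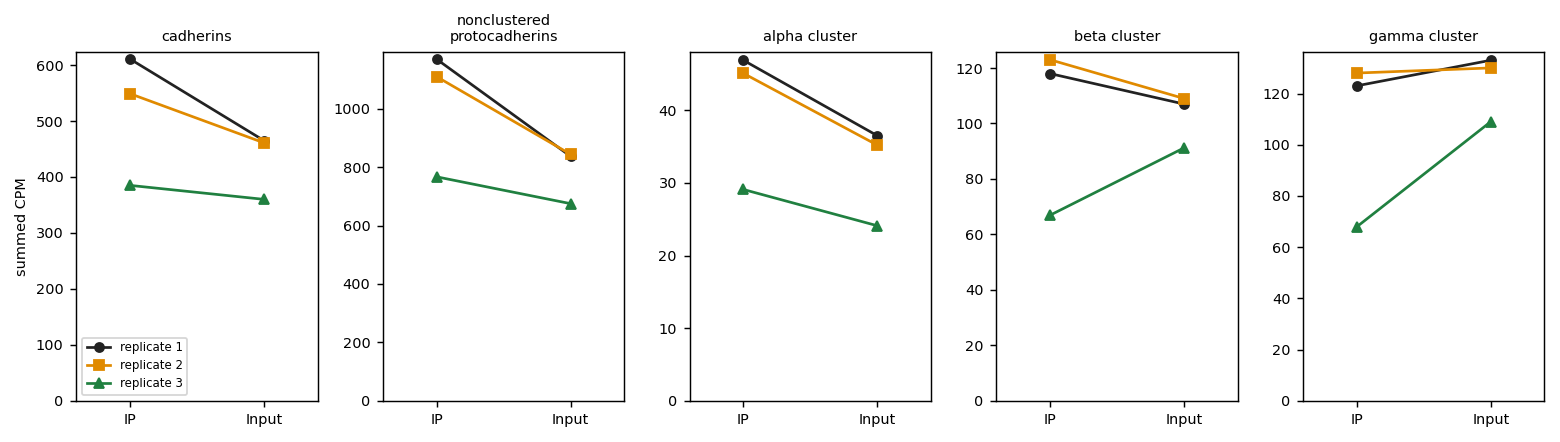
Summed CPM of the cadherins, the nonclustered protocadherins and the alpha, beta and gamma clusters (vertical axes from 0), with IP at the left and Input at the right and a line joining the libraries of each replicate number. Replicate 3 (green) is the lowest line in all 5 panels, and the beta and gamma sums of IP replicate 3, at 66.9 and 67.9 CPM, lie below those of the other libraries.

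All 57 clustered protocadherins lie on chromosome 18 in 3 arrays. Each isoform of the alpha and gamma arrays joins its own large first exon to exons that the whole array shares, so a read in a shared exon fits every isoform and what remains to tell them apart is the first exon. Pcdhgc4, for example, has 5596 exon bases in GENCODE M21, of which 3477 belong to no other counted gene. Reads that fit several genes made up 1.59% to 1.68% of counted lines in IP and 8.03% to 10.9% in Input. Alignments that were not unique went the other way, at 43.8% to 44.5% in IP and 31.8% to 33.0% in Input. How the authors' counting split shared reads is not given in the sources used here, so single isoforms are uncertain. Of the 57, 53 could be tested. Pcdha4, Pcdha6 and Pcdha7 were listed at 0 in all 6 libraries, and Pcdhb1 was too low.

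Of the 53 tested isoforms 1 was higher, 4 were lower and 48 did not pass. The count of higher isoforms was 3 with the replicate block (28.0% of all genes), 5 without IP replicate 3 (24.6%) and 4 without both libraries numbered 3 (26.3%). Without Input replicate 2, 2 isoforms were lower (23.7% of all genes). In the main comparison 9.43% of isoforms were called, against 53.9% of all genes. Within the range of average log2 CPM from 0 to under 4, which holds 49 of them, 10.2% were called against 48.9% of all genes in that range. Their median log2 fold change was -0.00 and their median SE was 0.38, so the isoforms were measured less precisely than genes as a whole. Summed over the 3 arrays they had 288, 295 and 164 CPM in IP and 276, 274 and 224 CPM in Input, with overlapping groups.

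Within the alpha array 0 of 11 tested isoforms passed, at log2 fold changes from -0.75 (Pcdha10) to 0.69 (Pcdha2). Pcdhac2, the C-type isoform used in the tiling of serotonergic axons, took most of the counts of the array. Its share was 68.2%, 63.4% and 63.1% in IP libraries and 60.2%, 56.7% and 62.1% in Input libraries. The level of Pcdhac2 was 32.0, 28.6 and 18.3 CPM in IP and 22.0, 20 and 15 CPM in Input. IP replicate 3 lay below Input replicates 1 and 2, though IP was higher in each pair. The log2 fold change was 0.47 (SE 0.23) and did not pass, and it was called with the replicate block (0.45, edgeR adjusted p 0.0163), without IP replicate 3 (0.69, edgeR adjusted p 0.0164) and without both libraries numbered 3 (0.53, edgeR adjusted p 0.0106).

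The beta array, whose isoforms share no exons, had 0 higher, 1 lower and 19 not passed of 20 tested. Pcdhb16 had 11.0, 10.6 and 7.02 CPM in IP and 15.9, 15.9 and 16.6 CPM in Input. Input libraries were nearly equal and every IP library was below them (log2 fold change -0.76, SE 0.19, edgeR adjusted p 0.0105). Its share of the array's counts was 9.38%, 8.61% and 10.5% in IP and 14.9%, 14.6% and 18.1% in Input. Pcdhb17, another of the abundant isoforms, had 15.9, 14.0 and 5.92 CPM in IP and 11.3, 11.1 and 7.55 CPM in Input. IP replicate 3 was the lowest of all 6 libraries, and the change of 0.26 (SE 0.34) did not pass, while without IP replicate 3 it was 0.59 (edgeR adjusted p 0.0488). Pcdhb2 stood at 0.81 (SE 0.39), not passed, and was called with the replicate block (0.77, edgeR adjusted p 0.0364), without IP replicate 3 (1.12, edgeR adjusted p 0.024) and without both libraries numbered 3 (0.88, edgeR adjusted p 0.0213). Pcdhb4 was called higher without IP replicate 3 (1.0, edgeR adjusted p 0.0275) and without both libraries numbered 3 (0.96, edgeR adjusted p 0.0412).

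The gamma array held 4 of the 5 called isoforms, 3 of them in the C-type trio at its far end. These C-type isoforms lie nearest to the shared exons and are expressed in a more uniform way than the A and B isoforms. Pcdhgc4, known in mouse for the survival of interneurons, had 25.9, 21.1 and 16.7 CPM in IP replicates 1 to 3, against 13.1, 10.3 and 6.76 CPM in Input replicates 1 to 3. The lowest IP library was above the highest Input library (fold change 2.10, log2 1.07, SE 0.26, edgeR adjusted p 0.00818).

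Its neighbours went the other way. Pcdhgc5, a late isoform studied at GABAergic synapses, had 8.36, 7.13 and 4.24 CPM in IP, against 14.8, 18.0 and 17.0 CPM in Input. The groups were well apart (log2 fold change -1.34, SE 0.25, edgeR adjusted p 0.00229). Pcdhgc3, which promotes dendrite branching in cortical neurons of the mouse, had 9.34, 15.4 and 5.22 CPM in IP and 23.9, 20.7 and 16.0 CPM in Input. IP replicate 2 came close to Input replicate 3 without reaching it (log2 fold change -1.02, SE 0.35, edgeR adjusted p 0.0358). The call of Pcdhgc3 was lost when IP replicate 1 (-0.96) or 3 (-0.70) or Input replicate 1 (-0.88) or 2 (-1.0) was left out, at edgeR adjusted p from 0.0563 to 0.109, and with no low-count filter (-1.01, edgeR adjusted p 0.0524).

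The trio together took 35.4%, 34.2% and 38.5% of the gamma counts in IP and 39.1%, 37.7% and 36.6% in Input, so the mix within it differed while its total share overlapped between groups. The share of Pcdhgc4 in the array was 21.0%, 16.5% and 24.6% in IP and 9.91%, 7.96% and 6.22% in Input. The count ratio of Pcdhgc4 to Pcdhgc5 was 3.10, 2.96 and 3.93 in IP libraries and 0.889, 0.575 and 0.397 in Input libraries. The ratio to Pcdhgc3 was 2.77, 1.37 and 3.20 in IP and 0.549, 0.499 and 0.422 in Input. Both ratios were above 1 in each IP library and below 1 in each Input library. They do not depend on the scaling between libraries and were chosen after the values were seen, and the exact two-sided permutation test gave 0.1, the smallest p that 3 against 3 allows. The groups of each of these isoforms did not overlap, in opposite directions. The separation of the ratios and that p were therefore fixed in advance and are no further support. Per kb of its own exon bases, Pcdhgc4 was the first of the trio in IP with a mean of 6.11 CPM per kb, before Pcdhgc3 with 2.95 and Pcdhgc5 with 1.19. In Input, Pcdhgc3 was first with 5.98 CPM per kb, and Pcdhgc5 with 3.01 and Pcdhgc4 with 2.90 were close to each other.

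Among the 12 gamma A isoforms 1 was lower and 11 did not pass, and of the 7 gamma B isoforms 0 passed. Pcdhga11 had 1.62, 3.34 and 1.84 CPM in IP and 4.97, 5.91 and 4.49 CPM in Input. Every IP library was below every Input library (log2 fold change -1.17, SE 0.32, edgeR adjusted p 0.0148), and without Input replicate 2 the call was lost (-1.05, edgeR adjusted p 0.0574). The B isoforms had a median log2 fold change of -0.59. Pcdhgb5 reached -1.07 (SE 0.41, edgeR adjusted p 0.0541) and did not pass. It passed without IP replicate 1 (-1.31, edgeR adjusted p 0.0493), without Input replicate 3 (-1.31, edgeR adjusted p 0.0343), without both libraries numbered 3 (-1.21, edgeR adjusted p 0.0499), with RLE scaling (-1.11, adjusted p 0.0484), with upper-quartile scaling (-1.22, adjusted p 0.0326) and in DESeq2 (-1.11, adjusted p 0.0265).

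**Figure D4:**
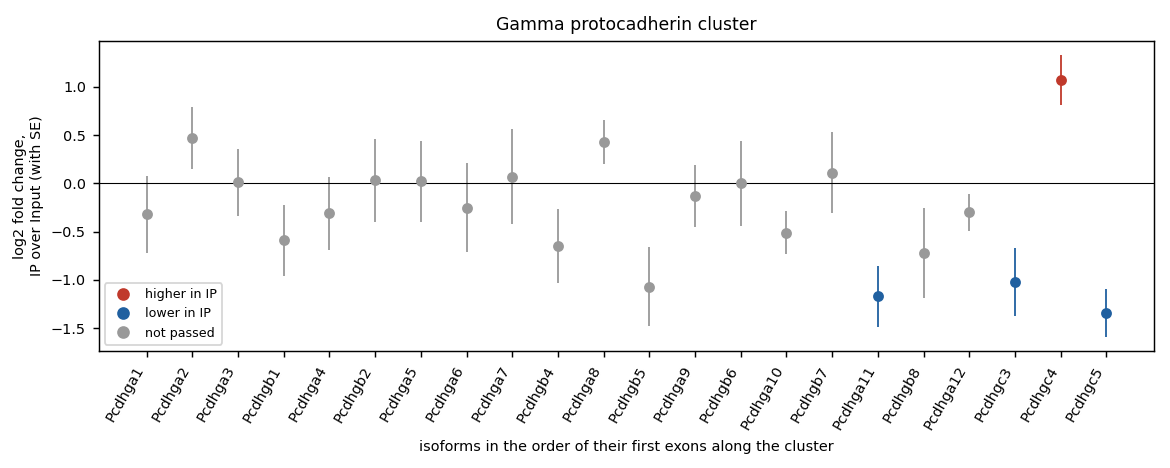
Log2 fold change of IP over Input with its SE (vertical axis) for the 22 gamma isoforms, in the order of their first exons along the array (horizontal axis). Pcdhgc4 (red, 1.07) stands between Pcdhgc3 (-1.02) and Pcdhgc5 (-1.34), both blue, at the right end, and Pcdhga11 (blue, -1.17) is the other called isoform.

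The order of levels per length showed which members dominated. In IP, Pcdh9 was followed by Cdh18 with a mean of 15.7 CPM per kb, Pcdh7 with 13.5, Pcdh10 with 11.4, Pcdh17 with 10.9 and Pcdh19 with 10.6. In Input, Pcdh9 was followed by Pcdh7 with 10.9 CPM per kb, Pcdh10 with 9.34, Pcdh1 with 8.88, Cdh2 with 8.44, Pcdh17 with 7.25 and Cdh18 with 7.03. Clustered isoforms were lower, with Pcdhac2 the first at 8.69 CPM per kb in IP and 6.27 in Input. Pcdh9 stood apart from the next member in every library, at 34.7 to 57.3 CPM per kb in IP, where Cdh18 had 13 to 19.2, and at 26.1 to 37.6 CPM per kb in Input, where Pcdh7 had 7.43 to 13.2. The ranges of each other pair of neighbours named in these orders overlapped. Members are mostly long transcripts, and RNA length moved with the contrast over all genes. The median log2 fold change was 0.43 for genes with under 2000 exon bases and -0.26 for those with 8000 or more. Members of 8000 or more exon bases had a median of 0.12 (n = 14). Those from 4000 to under 8000 had -0.06 (n = 49), against -0.02 for all genes of that length. Members from 2000 to under 4000 had the highest median, 0.40 (n = 17), against 0.23 for all genes of that length.

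The proteins that work with cadherins were read from a separate list of 62 genes. Of 55 tested, 3 were higher (5.45%, against 26.0% of all genes), 24 lower (43.6%, against 27.9% of all genes) and 28 did not pass, with a median log2 fold change of -0.36. Of 11 catenins and relatives tested, which tie cadherins to actin, 1 was higher (9.09%, against 26.0% of all genes) and 6 were lower (54.5%, against 27.9%). Ctnnb1, beta-catenin, averaged 237 ± 5.53 CPM in IP and 353 ± 43.4 CPM in Input (SD, n = 3 each), a log2 fold change of -0.57 (SE 0.11). Ctnnd1, p120-catenin, averaged 33.9 ± 3.43 CPM in IP and 72.9 ± 7.34 CPM in Input (-1.10, SE 0.13). Pkp4, a catenin-like plakophilin, averaged 431 ± 26.2 CPM in IP and 349 ± 18.8 CPM in Input (0.30, SE 0.10, edgeR adjusted p 0.0327). Its call was lost on leaving out any 1 of the IP libraries or either of Input replicates 1 and 2 (edgeR adjusted p 0.0514 to 0.117) and with RLE scaling (0.27, adjusted p 0.0511) or upper-quartile scaling (0.15, adjusted p 0.253).

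Other superfamily members had 1 higher (5.56%, against 26.0% of all genes) and 3 lower (16.7%, against 27.9%) of 18 tested. Clstn3, calsyntenin 3 of the postsynaptic membrane, averaged 119 ± 33.3 CPM in IP and 56.3 ± 17.6 CPM in Input (SD, n = 3 each), a log2 fold change of 1.08 (SE 0.27). The giant cadherins Fat3 and Fat1 stood at -1.15 (SE 0.17) and -1.25 (SE 0.18). The list held 11 genes for chromatin looping and silencing, which in mouse includes control of the protocadherin arrays. Of these 0 were higher and 6 lower (54.5%), where 26.0% of all genes were higher and 27.9% lower. In either direction 53.9% of all genes were called. The cohesin subunit Smc3 stood at -0.78 (SE 0.10) and the cohesin loader Nipbl at -0.95 (SE 0.11). The cohesin subunits Rad21 at -0.18 (SE 0.11) and Smc1a at 0.23 (SE 0.13) did not pass, and Rad21 was called lower without IP replicate 2 (-0.29, edgeR adjusted p 0.0496) and with upper-quartile scaling (-0.33, edgeR adjusted p 0.0357). Ctcf, whose protein binds the promoters of the arrays, stood at 0.10 (SE 0.13) and did not pass. Of 13 intracellular partners 1 was higher (7.69%, against 26.0% of all genes) and 9 lower (69.2%, against 27.9%). Cyfip2, a WAVE complex subunit to which delta-2 protocadherins can bind, averaged 1210 ± 80.9 CPM in IP and 849 ± 41.1 CPM in Input (0.51, SE 0.10). Its paralog Cyfip1 averaged 14.5 ± 1.18 CPM in IP and 42.8 ± 0.444 CPM in Input (-1.56, SE 0.12, edgeR adjusted p 4.11e-05). The complex genes Abi2 and Abi1 stood at -0.36 (SE 0.11) and -0.39 (SE 0.11). Nckap1 at 0.25 (SE 0.10) and Wasf1 at -0.30 (SE 0.16), also of this complex, did not pass. Abi2 was not called without IP replicate 3, Input replicate 1 or Input replicate 3 (edgeR adjusted p 0.0521 to 0.0637), nor Abi1 without Input replicate 1 (edgeR adjusted p 0.0513).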

How the data were processed

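Libraries were 3 IP and 3 Input samples of midbrain RNA, grouped by their titles. The authors deposited raw counts of reads for each gene symbol, not normalized. The submitters' processing notes name STAR 2.0.0e, HTSeq and mm10. Their annotation, strand setting and counting mode were not stated, so reads of overlapping genes cannot be told apart. Summary lines of the count files, 5 each, were kept out of totals.

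All 32531 genes were filtered by filterByExpr in edgeR, using the groups (count of at least 10, total of at least 15), scaled by TMM and compared by the robust two-sided quasi-likelihood test of edgeR 4.0.16 (R 4.3.3), with group as covariate. The p-values were adjusted by Benjamini-Hochberg over 17197 genes, with a threshold of 0.05. DESeq2 1.42.0 was an alternative. In simulated counts of IP against Input for 16903 genes, 55% of genes changed 2-fold and 80% of those changed 4-fold were recovered, and 2.17% of calls were false. Only 200 genes were changed there, and counts were drawn with the trended dispersion, while 53.9% of the real genes were called. These rates therefore do not give the recovery or the false calls of the main comparison.

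Same-numbered libraries share a lane (6, 3 and 1) by their labels, which pairs them. Deviations of paired libraries from their group means had correlations of 0.1545, 0.0744 and 0.0506. Replicates differed beyond sampling noise (chi-square per degree of freedom 27.1 to 84.6). Positions and exon bases came from GENCODE M21 and promoters from RefSeq.

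Members and lists were chosen with earlier results of these data known. Named genes were Lhx5, per subfamily up to 4 called members with the largest changes in each direction and the 3 most abundant, and per other list up to 2 called genes in each direction. Other genes given values, such as Cdh1, Cdh3, Cdh16, Cdh17, Cdh26, Pcdh1, Pcdh7, Pcdh8, Cdh20, Pcdhb2, Pcdhb4, Pcdhgb5, Pcdh11x, Ctcf, Rad21, Smc1a, Cyfip1, Nckap1 and Wasf1, and the isoform ratios were named after their values were seen.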

Additional observations from a re-analysis of the deposited data

How the results depend on the processing

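Over the alternatives computed for Lhx5 and 27 named members, 322 values kept direction and side of the threshold, 48 lost a call, 17 gained one and 5 changed sign, none of these called. They were Cdh2, at -0.04 in the main comparison, with 0.23 without IP replicate 3, 0.05 without Input replicate 1 or 2 and 0.06 without both libraries numbered 3, and Pcdhb17, at 0.26, with -0.08 without IP replicate 2 and Input replicate 3 together. Upper-quartile scaling moved the median log2 fold change of all genes to -0.17 and that of cadherins to -0.10, and 38.1% of calls were then higher in IP, against 48.2%. No low-count filter moved that median to -0.22. With upper-quartile scaling 2 nonclustered protocadherins were higher, where 3429 of all 17197 genes were. With the replicate block the pairing gave 2 nonclustered members lower and 3 clustered isoforms higher, and 15 members higher in all. At a threshold of 0.01, 3 cadherins were higher, 1 nonclustered member was higher and 0 were lower, and 1 clustered isoform was lower (Benjamini-Hochberg, edgeR). Of all 17197 genes 3042 were higher and 3414 lower at that threshold. Without IP replicate 2 and Input replicate 3 together, 3 cadherins and 1 nonclustered member were higher. Without both libraries numbered 3, an alternative chosen after seeing the data, 4 clustered isoforms were higher. Leaving out 1 library gave 3 to 7 cadherins higher and 2 to 5 lower, 1 to 6 nonclustered members higher, 1 to 5 clustered isoforms higher and 2 to 5 lower. Over all genes these fits had 3721 to 4384 higher and 4164 to 4783 lower, of 17532 to 17834 tested. The causes were not tested. Of the 91 members 9 had too few counts to test, and the clustered isoforms had a median SE of 0.38, against 0.21 for all genes.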
